A study of Mus musculus with 2 samples.

Results

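The genes described here are the 80 genes for proteins of the cytosolic ribosome whose symbols carry the Rps or Rpl stem with a plain number, together with Rplp0, Rplp1, Rplp2 and Rpsa. They were picked by symbol alone from the 32285 genes of the count matrices, with no use of measured values. The small subunit had 31 of them and the large subunit 49. Ribosomal proteins with other names, such as Rps3a1 and Fau, fell outside the symbol rule and are given as a separate list.

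The study asked how circulating neutrophils differ between young and old mice. It holds 2 single-cell libraries of mouse blood, 1 from animals of 2 months and 1 from animals of 24 months, both labelled male, with no strain, treatment or number of animals given. Red cells were lysed, and live cells positive for CD45, CD11b and Ly6G (the surface marker used to gate mouse neutrophils) were sorted. By the labels, their mRNA was captured on barcoded beads in BD Rhapsody microwells. The file headers name Cell Ranger although the labels name BD Rhapsody, and this conflict was left unresolved. With 1 library per age there is no replicate check, and no difference was tested. The intervals given (95%, exact binomial for shares and exact Poisson for CPM) cover counting error only.

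A cytosolic ribosome joins a small subunit, which decodes mRNA, to a large subunit, which forms peptide bonds, and most of its proteins are present in a single copy per particle. The mRNAs of these proteins start with a run of pyrimidines, the 5-prime terminal oligopyrimidine tract, through which their translation is set by the mTOR pathway and the protein LARP1. Neutrophils make most of their granule proteins in the bone marrow, stop dividing before release and carry little RNA. The transcripts of the granule proteins lactoferrin (Ltf), cathelicidin (Camp) and neutrophilic granule protein (Ngp) decline as the cells mature, so their summed share of a cell's unique molecular identifiers (UMIs) was used to order neutrophils.

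The young library had 13599 barcodes, 69599479 UMIs and a median of 4246 UMIs per barcode, and the old library had 14334, 128826996 and 7266. After filters on genes and mitochondrial UMIs, 12921 young and 13517 old cells remained, of which 10200 (78.9%) and 8933 (66.1%) were neutrophil-like. The sorted cells also included the lymphocyte-like and monocyte-like classes described below. Clusters left unnamed held 8.10% of young and 13.4% of old cells, and 53 barcodes occurred in both libraries (0.390% of young, 0.370% of old). Most young neutrophil-like cells (9791) fell in 1 cluster and most old ones (6031) in another, and the libraries also gave most of their monocyte-like cells from different clusters (classical: 21 in young, 8 and 14 in old; non-classical: 15 in young, 12 in old). Age, library and depth cannot be told apart in any comparison between the libraries.

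Neutrophil-like cells gave a small part of their UMIs to ribosomal protein genes. The share was 2.75% in the young library (interval 2.75 to 2.76) and 2.52% in the old one (2.51 to 2.52). It was 17.93% and 17.97% in B cell-like cells, 20.2% and 17.6% in T cell-like cells, 13.1% and 12.2% in NK cell-like cells, and 13.4% and 16.3% in classical monocyte-like cells. Non-classical monocyte-like cells, the patrolling monocytes of blood, gave 11.4% and 10.8%. Platelet-like cells gave 1.66% and 3.59%, and erythroid cell-like cells, which have no nucleus when mature, 0.273% and 0.509%. Per cell, a neutrophil-like cell held a mean of 124 ribosomal protein UMIs in the young library and 221 in the old one, against 1144 and 1330 in a B cell-like cell.

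**Figure D1:**
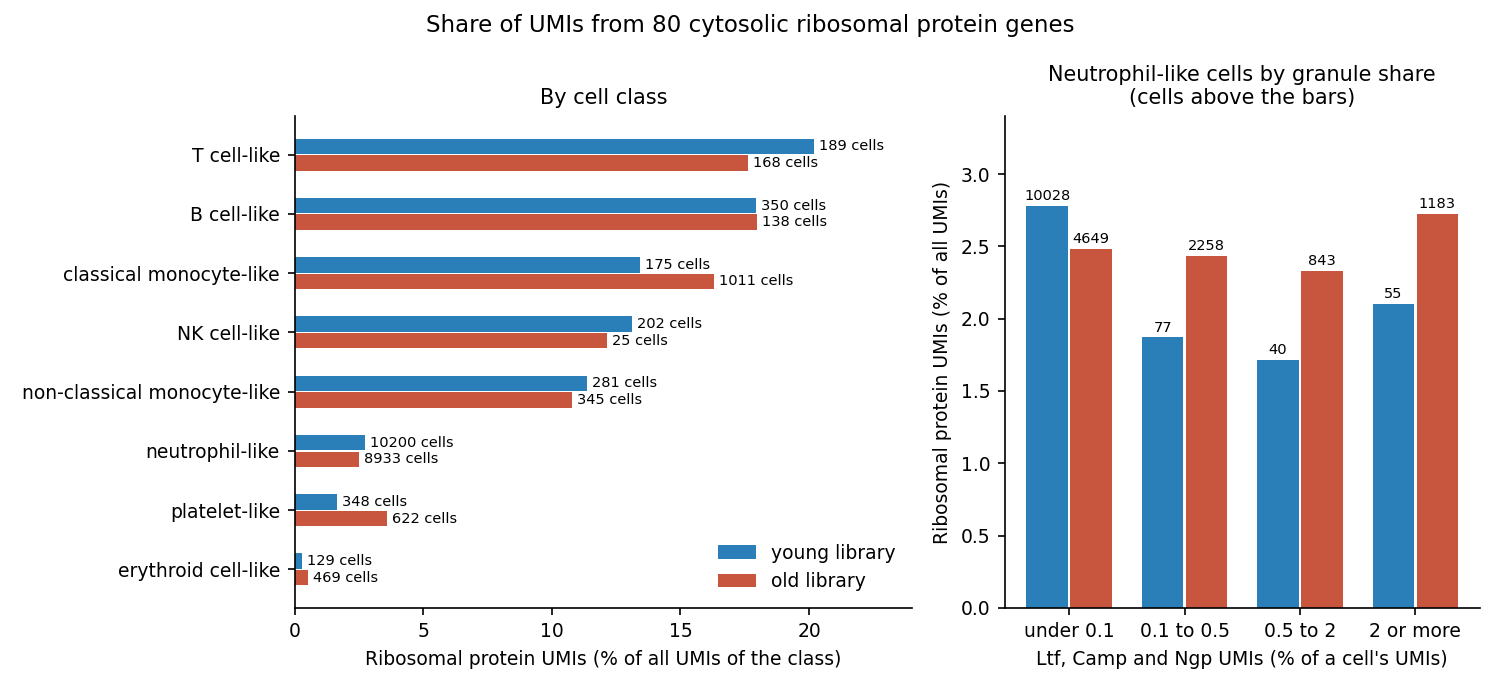
Bars give the UMIs of the 80 ribosomal protein genes as a percentage of all UMIs, for each cell class (left) and for neutrophil-like cells split by their share of Ltf, Camp and Ngp UMIs (right), young library in blue and old in red, with the number of cells beside each bar. Lymphocyte-like and monocyte-like classes lie between 10.8% and 20.2%, and neutrophil-like cells at 2.75% and 2.52%.

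Ribosomal protein genes were not lower in neutrophils by one common factor. The comparison was made for granule-low cells, which had under 0.5% of their UMIs from Ltf, Camp and Ngp (10105 young and 6907 old cells), against B cell-like cells of the same library (350 and 138 cells). Levels are in CPM, the UMIs of a gene summed over a class and scaled to a common total for all genes; they count transcripts and are not divided by gene length. Of the 80 genes, 78 reached a mean of 5 CPM over both sides, and 76 of these were 1.5-fold or more higher in B cell-like cells in each library, against 54.4% of all genes measured in the young library and 64.5% in the old. Rpl3l was the member lower in B cell-like cells (23.4% and 17.4% of all genes), and Rps9 lay within 1.5-fold. The median log2 ratio of the members was 2.83 and 3.09, and relative to the median gene 76 and 75 members were higher (53.7% and 53.1%). The medians for the small subunit (2.80 and 3.11) and the large subunit (2.84 and 3.02) were close.

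Around that median the genes spread widely. Rpl12, which forms the base of the stalk of the large subunit, stood at 37.7 CPM in young granule-low cells and 2192 in young B cell-like cells, and at 42.1 and 2317 in the old library. It was thus 58.2-fold and 55.1-fold lower in the neutrophils, the widest gap among the members that were lower there, in both libraries. Rpl10a had 31.4 CPM against 1537 in the young library and 41.1 against 1583 in the old. Rpl3, which lies next to the peptidyl transferase centre, had 39.2 against 1340 and 29.2 against 1486. Rps18 had 74.0 against 2411 and 71.5 against 2666. In the small subunit the group of wide gaps also held Rps20 (90.9 against 3900 CPM, young), Rps19 (90.9 against 2971), which is mutated in Diamond-Blackfan anaemia, and Rpsa (87.1 against 2747), the former laminin receptor.

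At the other end, Rps9 was nearly level. It stood at 2567 CPM in young granule-low cells (interval 2552 to 2582) and 2705 in young B cell-like cells (2638 to 2775), and at 2322 and 3006 in the old library, a log2 ratio of 0.08 and 0.37. Rps27a, made as a fusion of ubiquitin with a small subunit protein, had 1473 against 2616 CPM in the young library and 1533 against 2617 in the old. Rpl37 had 1320 against 2724 and 931 against 2426, and Rpl41, the smallest protein of the ribosome, had 1041 against 3290 and 874 against 3009. Rps27 had 1376 against 5443 and 767 against 4511. As a result Rps9 alone gave 9.27% of all ribosomal protein UMIs in young granule-low cells and 9.42% in old ones, but 1.51% and 1.67% in B cell-like cells. The 5 most abundant members together gave 28.1% and 26.1% in granule-low cells against 13.2% and 12.5% in B cell-like cells.

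**Figure D2:**
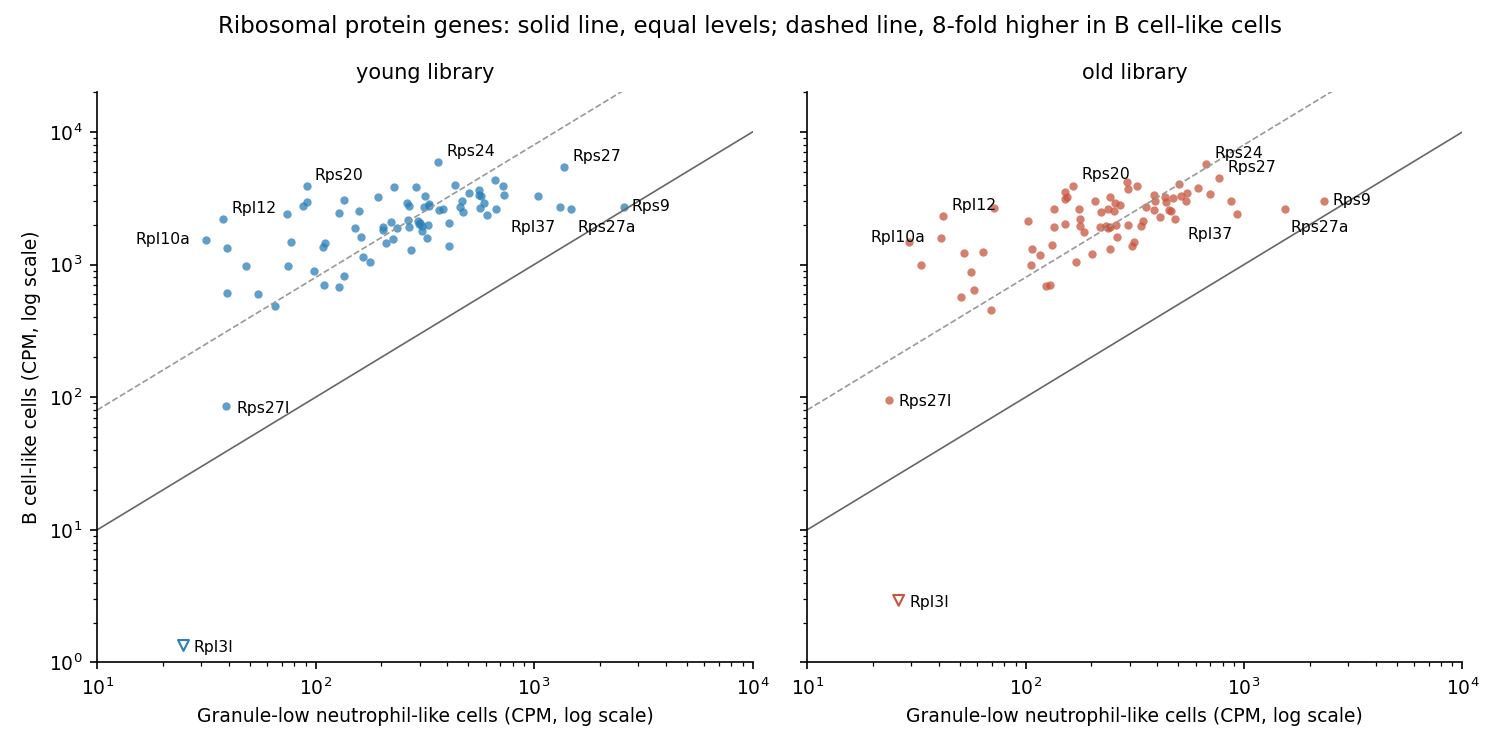
Each point is a ribosomal protein gene with its level in granule-low neutrophil-like cells (horizontal) and in B cell-like cells (vertical) of the same library, in CPM on log axes. Points spread from near the solid line of equal levels (Rps9) to well above the dashed line of 8-fold (Rpl12, 58.2-fold in the young library), and the open triangle places Rpl3l, which had no UMI in B cell-like cells, at the limit that a count of 0 allows.

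The low values were read against RNA from B cells. Markers of B cells (such as Cd79a and Ms4a1) averaged 0.432 UMIs per granule-low cell in the young library and 0.252 in the old, which is 0.772% and 0.501% of their level per B cell-like cell. On the same scale the ribosomal protein genes ran from 1.20% (Rpl12) to 66.1% (Rps9) with a median of 9.68% in the young library, and from 1.69% (Rpl12) to 71.9% (Rps9) with a median of 10.8% in the old. The members of the widest gaps therefore lay closest to the level of the B cell markers. That level covers RNA of B cells only. T cell-like, NK cell-like and monocyte-like cells hold the members too, and their RNA is not counted in it. It is thus no measure of all free RNA of these genes, and what part of their UMIs came from other cells was not tested. In the opposite direction, S100a8, a neutrophil gene, was present in B cell-like cells at 2.17% and 1.96% of its level per neutrophil-like cell.

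To show the start of these genes, 30 bases holding the longest run of C and T that begins with C were read from the RefSeq promoter windows of GRCm38.p6. The run was searched within 50 bases on each side of the annotated transcription start, on the gene's own strand only, and is in capitals. The first 4 belong to genes with a high level in granule-low neutrophils and the last 5 to genes with wide gaps, among them Rpsa, which is followed through the comparisons inside neutrophils.
Rps9, chr7:3704028-3704057, plus strand: cgccttgtCTCTCTTTgtctcgggcctgag
Rps27, chr3:90213629-90213658, minus strand: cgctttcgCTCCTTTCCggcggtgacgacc
Rpl37, chr15:5116633-5116662, plus strand: cgggggtgCTTTCTCTTCCggtctctttgg
Rpl41, chr10:128549119-128549148, minus strand: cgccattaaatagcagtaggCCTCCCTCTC
Rpl12, chr2:32961732-32961761, plus strand: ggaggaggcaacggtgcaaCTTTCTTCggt
Rpl10a, chr17:28328574-28328603, plus strand: gcgctctgCCTTCTTTCCggtttccgcggc
Rps18, chr17:33955646-33955675, minus strand: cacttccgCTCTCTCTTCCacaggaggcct
Rps19, chr7:24884625-24884654, plus strand: ccgtcgttCCCTTTCCCCTggctggcagcg
Rpsa, chr9:120127779-120127808, plus strand: ccgcccgtCCTTTCgcgctacccggggacg
The runs were 8 to 11 bases long except in Rpsa, where the longest was 6. They began between 43 bases before (Rps19) and 40 bases after (Rpl41) the annotated start, which need not be the one used in these cells. Of the 60 members in the RefSeq windows, 51 had a run of 8 or more, against 8645 of 27025 genes (32.0%). Genes of small and of wide gap both held such runs, and a match is a description of the sequence, not a measured tract.

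Rpl3, Rpl10a, Rps18 and Rps9 also stood at the ends in T cells and non-classical monocytes. Against granule-low cells, T cell-like cells were higher by 1.5-fold or more for 76 of 78 genes in each library (all genes: 54.6% in young, 63.4% in old), with medians of 3.03 and 3.08. Non-classical monocyte-like cells were higher for 75 and 77 of 78 genes (53.8% and 66.8%), with medians of 2.35 and 2.46. Classical monocyte-like cells of the old library, which share the marrow origin of neutrophils, were higher for 77 of 78 (60.8%), with a median of 3.03. In the old library 73 members were higher relative to the median gene in non-classical (47.1%) and 76 in classical monocyte-like cells (51.7%). The highest mean log2 ratio over both libraries was that of Rpl12 in T cell-like cells (5.85), followed by Rpl3, Rpl10a (5.39) and Rps18 (5.33), and that of Rpl3 in non-classical monocyte-like cells (4.43), followed by Rpl10a (4.33), Rps19 (4.08) and Rps18. Rps9 was about level there as well, with 2187 CPM in young and 2316 in old non-classical monocyte-like cells, close to its 2567 and 2322 in granule-low neutrophils. Between genes, log2 CPM in young B cell-like cells followed that in young T cell-like cells with Pearson's r = 0.99 and Spearman's rho = 0.95 (78 genes) but that in young granule-low neutrophils with r = 0.56 and rho = 0.63; these classes share a library, and genes are not independent replicates.

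Across neutrophil maturity the total share of these transcripts stayed between 2.33% and 2.73% in the old library, while single members differed by more than 2-fold. There the share was 2.48% in 4649 neutrophil-like cells with a granule share under 0.1%, 2.43% in 2258 cells at 0.1 to 0.5%, 2.33% in 843 cells at 0.5 to 2%, and 2.73% in 1183 granule-high cells at 2% or more. Mean ribosomal protein UMIs per cell were 157, 196, 292 and 468 in the same order, as the median depth went from 5967 to 16117 UMIs. In granule-high cells 42.5% of UMIs came from Ltf, Camp, Ngp, S100a8 and S100a9 alone, and without these 5 genes the share was 3.24% in the lowest class and 4.74% in the highest. The young library had few cells above 0.1%: its shares were 2.78% (10028 cells), 1.87% (77), 1.72% (40) and 2.10% (55). Ltf, Camp and Ngp gave 0.0558% of UMIs in the lowest class of the old library. They also gave 0.0487% in old B cell-like, 0.0680% in old T cell-like and 0.115% in old platelet-like cells. What part of the granule share of the lower classes came from other cells was not tested.

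In old granule-high against granule-low cells, 19 of 78 genes were higher by 1.5-fold or more (all genes: 13%) and 3 were lower (33.7%), with a median log2 ratio of 0.35. Relative to the median gene, which was lower by 0.46 on the log2 scale, 55 were higher (28.0%) and 0 lower (15.6%). Rpsa stood at 134, 182, 249 and 421 CPM from the lowest to the highest granule share, a log2 ratio of 1.46 between granule-high and granule-low cells. Rpl10a followed at 38.2, 45.9, 63.7 and 107 CPM. Both climbed in every step. Rps20 (1.24), Rps28 (1.21), Rps18 (1.19) and Rpl3 (1.13) came next, Rpl3 only in the last step, from 31.2 to 65.1 CPM. Rps27 declined from 820.5 through 681 and 505 to 467 CPM (log2 ratio -0.72), and Rpl37 was also lower in granule-high cells (-0.86). The ratios of Rps9 (-0.47), Rps27a (-0.31) and Rpl17 (-0.30) were the next lowest and lay within 1.5-fold. Relative to the median gene Rps27 and Rpl37 were below 0 (-0.26 and -0.40), Rps9 was level with it (-0.02) and Rpl17 was above it (0.15).

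**Figure D3:**
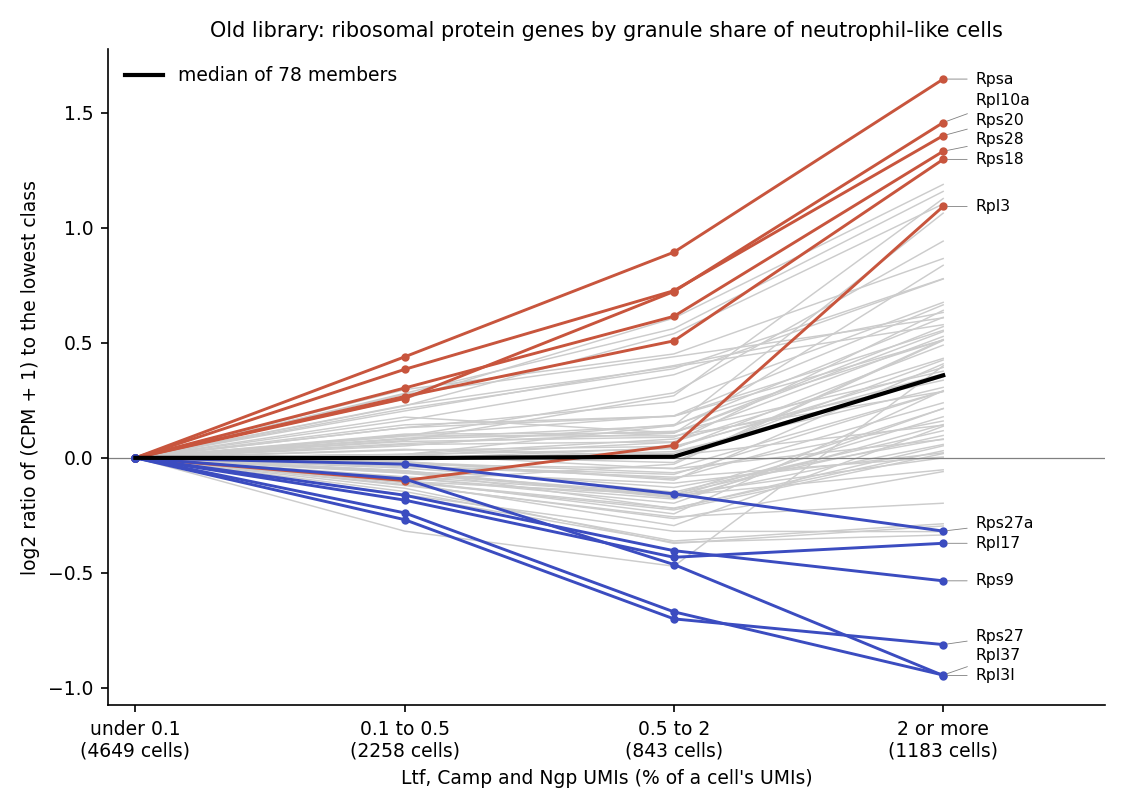
Lines follow 78 ribosomal protein genes of the old library over 4 classes of neutrophil-like cells by granule share, as log2 ratio of CPM + 1 to the lowest class; the 6 genes with the highest and the 6 with the lowest ratio of granule-high to granule-low cells are coloured and named, and the black line is the median. Rpsa and Rpl10a climb in each step, Rps27 and Rpl37 lie below 0 in the last class.

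Depth went with granule share, so cells of like depth were compared, a choice made after the data were seen. Among old cells of 10000 to 20000 UMIs (921 granule-low, 792 granule-high), the median log2 ratio was 0.20 and the share of UMIs 2.40% against 2.48%. Among those of 5000 to 10000 UMIs (3727 and 69 cells) the share was 2.47% in granule-low and 2.23% in granule-high cells. In the deeper window Rpsa stood at 194 and 342 CPM (log2 ratio 0.81) and Rpl10a at 48.9 and 85.6 (0.79), while Rps27 stood at 639 and 448 (-0.51) and Rpl37 at 810 and 488 (-0.73). Of 8 classical monocyte markers, 7 were lower in old granule-high than in granule-low cells, among them Ccr2 (9.55 against 13.5 CPM), F13a1 (8.02 against 13.5) and Vcan (3.15 against 4.88), while Ly6c2, which neutrophils also make, had 1026 against 351. Summed B cell markers were 53.2 against 51.0 CPM. The 8 markers of neutrophil progenitors, which include the proliferation genes Mki67 and Top2a, were all higher and summed to 93.5 against 24.2 CPM, with Mpo at 0.738 and Ctsg at 0.443; their part in the result was not tested.

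The young library had 55 granule-high cells, and there 5 of 78 genes were higher (all genes: 17.6%) and 21 lower (45.4%), with a median of -0.23. Relative to the median gene, which was lower by 0.63 on the log2 scale, the split was 25 higher (33.8%) and 1 lower (23.8%). Rpl4 (log2 ratio 1.13), Rpsa (0.79), Rps4x (0.70), Rps20 (0.64) and Rps18 (0.62) were the higher ones. Of these, Rpl4 stayed past 1.5-fold under each alternative in which single members were followed (lowest 0.86). With cells thinned to 1000 UMIs, Rpsa was at 0.44 and Rps4x turned to -0.24, and with equal weight per cell Rps20 was at 0.45 and Rps18 at 0.49. Rpsa had 151 CPM (interval 123 to 184, from 99 UMIs) in granule-high cells against 87.1 in granule-low cells. Rpl3l, Rpl37, Rps27 and Rps9 headed the lower ones, as Rps9 stood at 1204 against 2567 CPM and Rps27 at 635 against 1376.

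The ratio of B cells to mature neutrophils in the young library and that of less to more mature neutrophils in the old one ran side by side across members. Over 77 genes without Rpl3l, the young ratio of B cell-like to granule-low cells and the old ratio of granule-high to granule-low cells, which share neither cells nor library, had r = 0.83 and rho = 0.78. With Rpl3l they were 0.80 and 0.79 over 78 genes. For the young ratio of non-classical monocyte-like cells the values were 0.89 and 0.84, and for T cell-like cells 0.85 and 0.81 (78 genes). For the young ratio of granule-high to granule-low cells, with 55 granule-high cells, they were lower at 0.71 and 0.70 (78 genes). The length of annotated exons went weakly with the young B cell ratio (rho = 0.20, 77 genes) and with the old granule-high ratio (rho = 0.09). All these ratios are taken to granule-low cells, and the levels of members in young and old granule-low cells had r = 0.96 (78 genes). A member low in granule-low cells of both libraries is raised in both ratios, so the ratios are not independent. These are descriptions over genes, and the part of free RNA in either ratio was not tested.

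**Figure D4:**
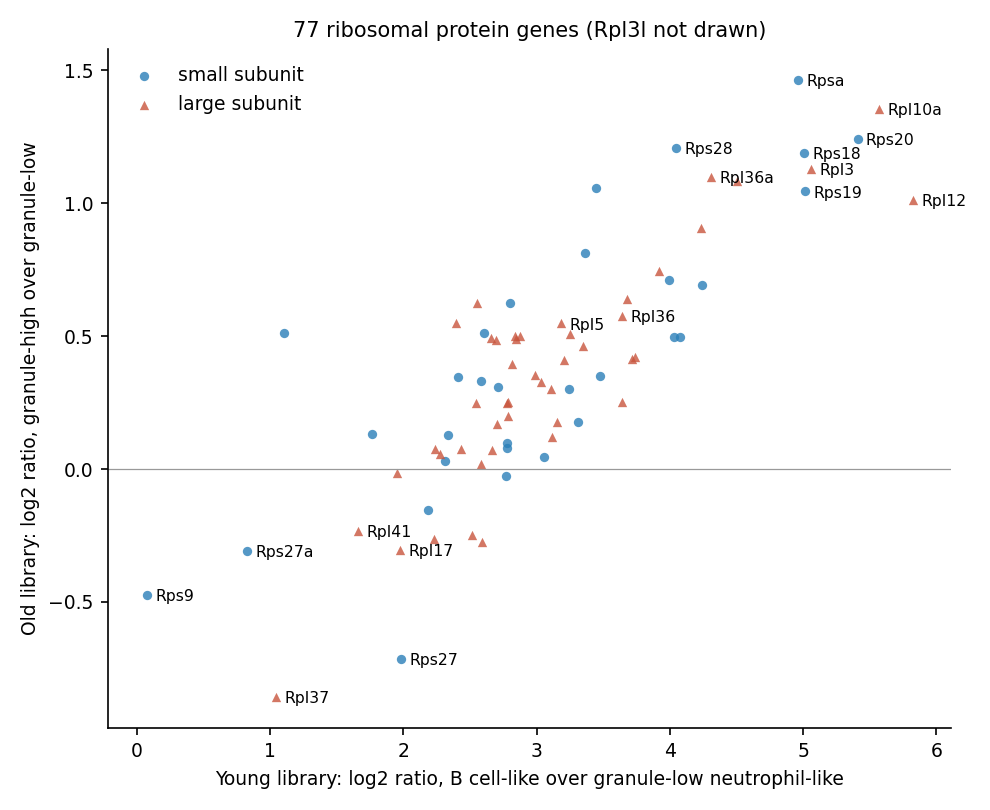
Each point is 1 of 77 ribosomal protein genes (circles, small subunit; triangles, large subunit), with the log2 ratio of B cell-like to granule-low neutrophil-like cells in the young library on the horizontal axis and of granule-high to granule-low cells in the old library on the vertical axis. Rps9, Rps27a, Rpl37 and Rps27 lie at the lower left and Rpsa, Rpl10a, Rps20 and Rpl12 at the upper right, with r = 0.83. Both ratios are taken to granule-low cells and are not independent.

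Between the ages, neutrophil-like cells showed members on both sides. In all neutrophil-like cells 9 of 78 genes were 1.5-fold or more higher in the old library (all genes: 7.69%) and 4 lower (50.5%), with a median log2 ratio of -0.11. The median gene was lower by 0.68 on the log2 scale, and relative to it 37 members were higher (24.1%) and 0 lower (12.3%). Rpsa had 87.9 CPM in young and 235 in old neutrophil-like cells (log2 ratio 1.41), and Rps20 had 91.5 and 234 (1.35). Rps19 (91.2 and 201 CPM), Rps24 (365 and 763), Rps4x, the X-linked form of this small subunit protein (129 and 263), and Rpl10a (31.3 and 61.1) were also higher in the old library, Rpl10a at a log2 ratio of 0.94 that went down to 0.41 with cells thinned to 1000 UMIs. Rps27 had 1359 and 654 CPM (-1.05), Rpl37 had 1304 and 781 (-0.74), and Rpl17 (663 and 426) and Rpl5 (97.1 and 63.1), which binds 5S rRNA, were lower too. On the scale of the median gene Rps27 was at -0.37, Rpl37 at -0.06, Rpl17 at 0.04 and Rpl5 at 0.06.

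Old neutrophil-like cells held more granule-high cells, so ages were also compared within the same limits of granule share. Granule-low cells still differed, with 0.00701% of UMIs from Ltf, Camp and Ngp in the young library and 0.115% in the old. Granule share was thus not matched there, and its part in the differences was not tested. In granule-low cells 6 genes were higher in the old library (all genes: 5.90%) and 5 lower (43.7%), with a median of -0.15. Relative to the median gene, lower by 0.53 on the log2 scale, 21 were higher (16.4%) and 0 lower (10.1%). Rps24 (362 against 668 CPM), Rps20 (90.9 against 165), Rpsa (87.1 against 152), Rps4x (128 against 221), Rps19 (90.9 against 152) and Rplp0 (268 against 412) were the higher ones, and Rps27, Rpl5, Rplp2 and Rps27l were among the lower ones. Rpsa (0.80) and Rps19 (0.73) came to 0.57 and 0.58 with thinned cells, and Rplp0 (0.62) to 0.48 with equal weight per cell, all just or clearly under 1.5-fold. In granule-high cells, with 55 young against 1183 old, 23 genes were higher in the old library (8.14%) and 0 lower (31.6%), with a median of 0.43. Relative to the median gene the split was 53 higher (16.8%) and 0 lower (14.4%). Classical monocyte markers summed to 231 CPM in young and 475 in old granule-low cells, B cell markers to 149 and 51.0, and platelet markers to 126.5 and 261, and Ccr2 stood at 1.78 and 13.5; their part in these differences was not tested.

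B cells, T cells and non-classical monocytes gave a measure of the difference between the libraries outside neutrophils, for these classes only. Single members were not compared between ages in classical monocyte-like cells (175 young, 1011 old). Their share of ribosomal protein UMIs was 13.4% (young) and 16.3% (old). The shares were 17.93% and 17.97% for B cells, 20.2% and 17.6% for T cells, and 11.4% and 10.8% for non-classical monocytes. In B cells 0 of 77 members were 1.5-fold higher or lower in the old library (all genes: 11.3% higher, 11.1% lower), with log2 ratios from -0.34 to 0.33 and a median of 0.01. In non-classical monocyte-like cells it was 0 of 78 (6.22% and 6.98%), with ratios from -0.43 to 0.42 and a median of -0.07. In T cell-like cells 0 of 77 were higher (10.5%) and 4 lower (11.7%), namely Rps29 (4721 and 2835 CPM, log2 ratio -0.74), Rpl28 (-0.65), Rps26 (-0.64) and Rpl35 (-0.60). Neutrophil markers summed to 8147 CPM in young and 35284 in old T cell-like cells. They summed to 2444 and 8583 in B cell-like cells and to 2508 and 9211 in non-classical monocyte-like cells. The part of neutrophil RNA in these differences was not tested. The standard deviation of the log2 ratio over members was 0.48 in all neutrophil-like cells and 0.39 in granule-low ones. It was 0.14 for B cells, 0.17 for T cells and 0.12 for non-classical monocytes. The spread over all genes was not computed. Rpsa, at 2747 and 3095 CPM in B cell-like cells and 1653 and 1757 in non-classical monocyte-like cells, and Rps20, at 3900 and 3941 and at 1346 and 1447, differed less there than in neutrophils. Rps27 lay within 1.5-fold in each of these classes, at 5443 and 4511, 4255 and 3479, and 3093 and 2345 CPM for B cells, T cells and non-classical monocytes in turn (log2 ratios -0.27, -0.29 and -0.40).

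**Figure D5:**
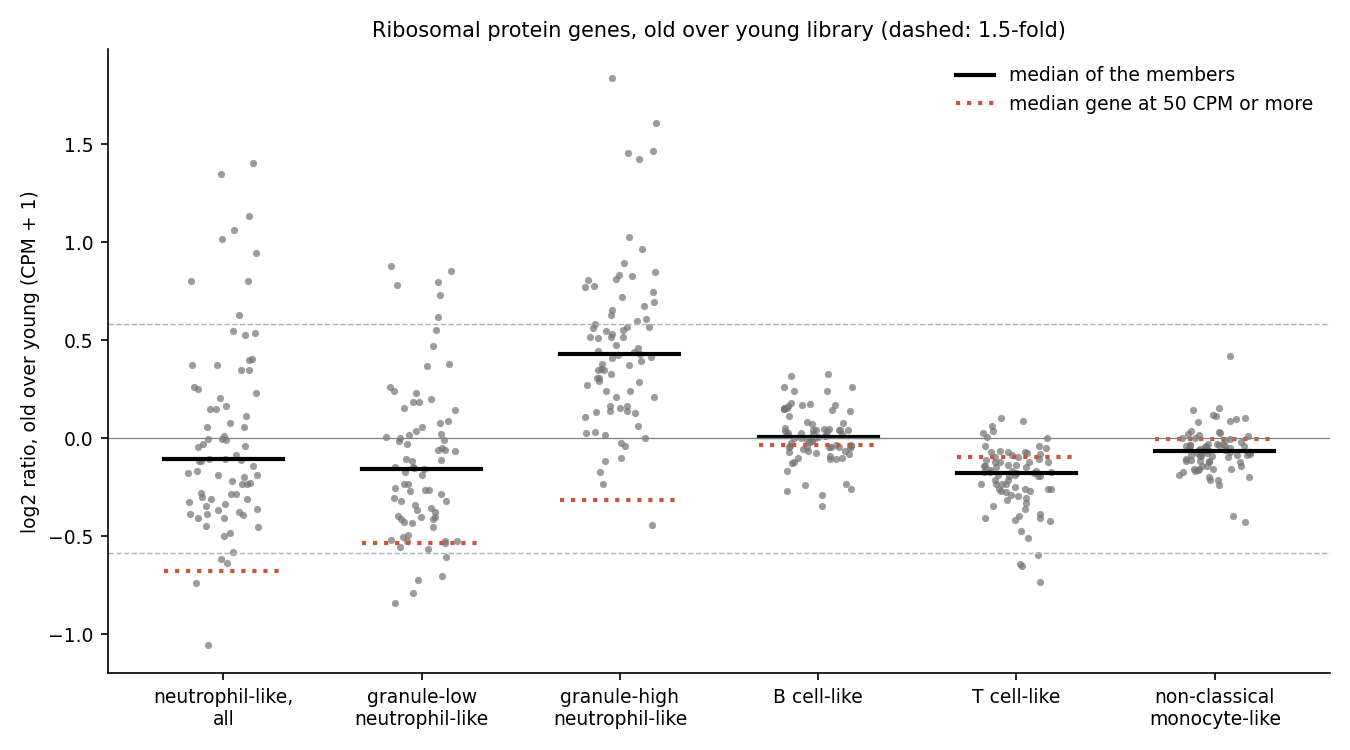
Each point is a ribosomal protein gene with its log2 ratio of old to young CPM + 1, in 6 cell classes; black bars are the medians of the members and dotted red bars that of all genes at 50 CPM or more. Members spread beyond the dashed lines of 1.5-fold in the neutrophil-like classes, lie within them in B cells and non-classical monocytes, and cross them for 4 genes in T cell-like cells.

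The stalk of the large subunit, which recruits elongation factors, is built from Rplp0, Rplp1 and Rplp2. Rplp0 had 268 CPM in young and 469 in old neutrophil-like cells (log2 ratio 0.80), while Rplp1 had 327 and 247 (-0.41) and Rplp2 had 303 and 215 (-0.50). The 3 genes did not keep 1 ratio to each other between the libraries. In B cell-like cells they stood at 1934 and 2286, 2865 and 3251, and 1802 and 1772 CPM.

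Paralogs of ribosomal proteins were read separately. Rpl3l, the form of Rpl3 known from heart and skeletal muscle, had 24.8 CPM in young and 26.2 in old granule-low cells, and 37.0 and 49.7 in non-classical monocyte-like cells. It had 0 UMIs in B cell-like cells of both libraries (2233599 and 1021551 UMIs in all). Against a floor of 3 counts per class, B cell-like cells were at least 18.5-fold lower in the young library and at least 8.94-fold lower in the old, and the medians over members stayed at 2.83 and 3.09 with Rpl3l at this bound. A UMI of Rpl3l was found in 9.27% of young granule-low cells (exact binomial interval 8.71 to 9.86; median depth 4072 UMIs) and in 0 of 350 young B cell-like cells (median depth 5863), where 3 counts of the total give a share of up to 0.857% and the exact binomial interval reaches 1.05%. Its parent Rpl3 went the other way, with 39.2 CPM in young granule-low cells and 1340 in B cell-like cells, which is a level of transcripts not scaled by length. Rpl3l had 13.5 CPM in old granule-high and 26.2 in old granule-low cells (log2 ratio -0.91). Rps27l, a p53-responsive paralog of Rps27, had 39.0 and 23.6 CPM in granule-low cells against 85.1 and 95.9 in B cell-like cells. Rpl10l and Rpl39l, which are known from the testis, were the 2 members under 5 CPM throughout, with 3 UMIs of Rpl10l in young neutrophil-like cells, 0 in old ones, and 5 and 10 of Rpl39l. Their parent genes Rpl10 (210 and 202 CPM in granule-low cells against 1450 and 1211 in B cell-like cells) and Rpl39 (433 and 322 against 3998 and 3897) were far more abundant.

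Of the 9 ribosomal genes that the symbol rule left out, 8 were in the files and measured. Fau, which fuses a ubiquitin-like protein to a small subunit protein, had 4026 CPM in young granule-low and 5237 in young B cell-like cells, and 3055 and 5082 in the old library, log2 ratios of 0.38 and 0.73, where Rps27a had 0.83 and 0.77. It was 2597 CPM in old against 3976 in young neutrophil-like cells (-0.61). Rps3a1 (406 and 322 CPM, -0.33) was within 1.5-fold between ages, Rpl36al (23.1 and 35.5) was higher in the old library, and Rps27rt, an intronless copy of Rps27 that can share its reads, was lower (89.1 and 40.5). All 16 elongation factors and other transcripts known for a terminal pyrimidine tract were higher in B cell-like than in granule-low cells in both libraries (all genes: 54.4% and 64.5%), with medians of 2.23 and 2.30. Against the median gene 16 were higher in the young library and 14 in the old (53.7% and 53.1%). Between ages 1 of 16 was higher (Eif3k, 68.2 and 107 CPM) and 1 lower (Eef1d, 31.5 and 19.2), beside 7.69% and 50.5% of all genes. Against the median gene 9 were higher and 0 lower, beside 24.1% and 12.3% of all genes.

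The rest of the translation machinery gave the following counts. Of 20 initiation factors, 16 (young library) and 18 (old library) were higher in B cell-like cells (all genes: 54.4% and 64.5%), with medians of 1.73 and 1.87. Between the ages 18 were measured in neutrophil-like cells. Of these, 4 (Eif4a2, Eif5, Eif4e and Eif3a) were lower in the old library, with none higher, beside 50.5% of all genes lower. Against the median gene 5 initiation factors were higher and 0 lower (24.1% and 12.3% of all genes). Ribosome biogenesis genes were scarcely detected in neutrophils: 4 of 26 reached a mean of 5 CPM over both ages. In the comparison with B cell-like cells 23 and 25 of 26 reached it, and 22 and 25 were higher (all genes: 54.4% and 64.5%). The floor was on the mean of both sides. Genes scarce in neutrophils passed it only through B cell-like cells, so their being higher there was set by the filter. Nucleolin (Ncl), the main protein of the nucleolus, had 58.9 CPM in young and 29.2 in old neutrophil-like cells and 214 and 261 in B cell-like cells. Of 17 regulators of ribosomal protein synthesis, 14 were measured between ages and 10 were lower in the old library, among them Rps6kb1, the S6 kinase downstream of mTOR (49.7 and 22.4 CPM), and Rheb, which activates mTOR (101 and 63.1). The median of that list was -0.71 and the shift of the median gene -0.68, beside 50.5% of all genes lower. Against the median gene 3 of the 14 regulators were higher and 0 lower, beside 24.1% and 12.3% of all genes. Mitochondrial ribosomal protein genes, 40 of 78 measured, had 3 higher and 6 lower members with a median of -0.13 (all genes: 7.69% and 50.5%), and 18 higher and 2 lower against the median gene (24.1% and 12.3%). Mrps28 (113 and 25.5 CPM) and Mrps15 (103 and 32.2) had the largest differences.

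Positions were taken from the GENCODE annotation of GRCm38, where all 80 genes matched by identifier. Rps9 lies on chromosome 7 at 3703993 to 3706897 (plus strand) and Rps27 on chromosome 3 at 90212522 to 90213651 (minus strand), with no other annotated gene over either. Rpsa lies on chromosome 9 at 120127689 to 120132369 (plus strand) and holds small nucleolar RNA genes in its span. Rpl12 on chromosome 2 at 32961559 to 32965345 (plus strand) overlaps Lrsam1 on the opposite strand and a small nucleolar RNA gene, Rpl10a on chromosome 17 at 28328471 to 28331033 (plus strand) overlaps a noncoding RNA gene, and Rps27a on chromosome 11 at 29545846 to 29548109 (minus strand) overlaps Clhc1. Ribosomal protein genes have many processed copies in the genome, and reads that fit several of them may have been dropped or split in the counting. The files list 5 such pseudogenes by name, with 4641 UMIs in the young library against 3375924 of the members and 6646 against 7440096 in the old. Whether counting used the strand is not given in the sources used here, and low levels of single members are uncertain to that extent.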

How the data were processed

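The deposited files hold counts of UMIs per gene and cell barcode, which the authors did not normalize. Version 7.2.0 of Cell Ranger comes per the file headers and the build, mm10, per the submitters' processing notes; the annotation release and the calling of cells are not given in the sources used here. Barcodes under 200 genes or over 20% mitochondrial UMIs were dropped. Both libraries were clustered together without the members (scanpy 1.11.5, Python 3.11.15, leidenalg 0.10.2; 2000 variable genes per library, 30 principal components, 15 neighbours, Leiden resolution 0.6), and cells outside neutrophil clusters were clustered a second time, a step added after the data were seen. Clusters were named "X-like" from 17 marker lists with at least 3 markers detected (20 CPM and 25% of the highest cluster). Clusters led by markers of another class, with leading genes under 100 CPM, or with 4 or more of 10 neutrophil markers outside the neutrophil clusters, such as doublets give, stayed unnamed; no doublet caller was run.

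UMIs were summed per class and library, expressed as CPM and compared as log2 ratios with 1 CPM added to each side. Classes under 50 cells got no ratio. Members at a mean of 5 CPM counted as higher or lower from 1.5-fold, and the median gene is that of all genes from 50 CPM upward. Named members were the 6 highest and 6 lowest ratios, at 10 CPM or more, in old against young and in granule-high against granule-low (old) neutrophils, the 4 highest and lowest in the other classes, 16 fixed members, and up to 4 genes of each other list. Rps4l was not analysed here, and 1 member is not reported by name. Rps26, Rps29, Rpl4, Rpl28, Rpl35, Rpl36a, Rpl41 and single marker genes were named after their values were seen. The members and lists were chosen with earlier results of these data known. The calling code was tested on simulated counts.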

Additional observations from a re-analysis of the deposited data

Results flagged for a closer look

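Rpl36a, a protein of the large subunit, was higher in granule-high than in granule-low neutrophil-like cells of the old library (log2 ratio 1.10, 72.0 against 33.1 CPM) and lower in those of the young library (-1.03, 22.9 against 48.1 CPM). It was singled out because both ratios passed 1.5-fold in opposite directions. The young granule-high value rests on 15 UMIs (interval 12.8 to 37.8 CPM) and the old one on 1464. With 1 library per age the difference was not tested.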

How the results depend on the processing

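No paired analysis was possible because each age has a single library. Each of the 7 planned counts of members higher in B cells, T cells or monocytes than in granule-low neutrophils stayed between 73 and 78 under all 16 alternatives run for it. Counts inside neutrophils depended on the scale. Taking genes out of the total, or using UMIs per cell, moves the ratios of all genes by nearly the same amount. The share of all genes was counted only for the reported setting and centred on the median gene. Counts under every other alternative, including other granule limits, the depth window and thinned cells, therefore do not single out the members. Without Ltf, Camp, Ngp, S100a8 and S100a9 in the total, 21 members were higher in old neutrophil-like cells, 10 in old granule-low and 35 in old granule-high cells, 49 were higher in old granule-high than granule-low cells and 3 were lower in young granule-high cells. Centred on the median gene, these counts were 37, 21, 53, 55 and 1. With UMIs per cell in place of CPM, an alternative added after seeing the data, they were 64, 29, 68, 77 and 1, the last beside 70 higher, since cells of the old library and granule-high cells were deeper. Limits of 0.1% and 5% on the granule share gave 40 members higher in old granule-high cells, and cells of 10000 to 20000 UMIs, also added later, gave 12; the cause was not tested. Thinned to 1000 UMIs per cell, 33 members were lower in young granule-high cells and 3 were higher in old granule-low cells. In T cell-like cells the count lower in the old library was 1 when centred, 8 when thinned and 1 when cells were clustered once, and in B cell-like cells it was 1 with UMIs per cell. With the mean over shared granule share classes 9 members were higher in old neutrophil-like cells, but Rpl4, called at 0.80, was at 0.34, and the median was 0.24 in place of -0.11. The young granule-high class of 55 cells could not be compared at 5% or more. Depth limits Rpl10l and Rpl39l, which were under 5 CPM in every comparison.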
